A study of Mus musculus with 12 samples.

Results

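The proteasome degrades proteins that carry ubiquitin, and its mRNAs were followed in neural stem cells (NSCs) cultured at different folate concentrations. The members were chosen by symbol alone, as genes in the gene column of the deposited files whose symbol starts with Psma, Psmb, Psmc, Psmd, Psme, Psmf or Psmg and goes on with a digit. There were 50 such symbols, 48 of which had at least 1 background cytosine, of 15487 genes in all. Of these, 41 had at least 10 background cytosines in each of the 12 libraries and entered the tests, among 7475 genes tested. The 41 hold 40 subunits, assembly factors or regulators of the proteasome, and Psmc3ip, which matches by symbol only and acts in meiotic recombination. A background cytosine is one with a methylation level under 0.05, and the coverage of such cytosines, in reads per position, measured the abundance of an mRNA. Coverage is counted per position, so it is not a sum over the length of a gene. A position is listed only where at least 1 read was unconverted, so positions with few reads are listed less often. The median of a weakly covered gene may thus be too high, which limits comparisons of coverage between genes.

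All libraries were made from adult NSCs of the subventricular zone of male wild-type (WT) C57BL/6 mice aged 6 to 8 weeks. The cells grew for 4 days with growth factors EGF and bFGF and with low (LF, 1.5 μM), medium (MF, 10 μM) or high (HF, 80 μM) folic acid. RNA bisulfite sequencing (RNA BS-seq), in which unmethylated cytosines are read as T and 5-methylcytosine (m5C) as C, was performed on total mRNA (LF, MF, HF) and on mRNA pooled from polysome fractions of sucrose gradients (pLF, pMF, pHF). Each of the 6 groups had 2 replicates. The sources do not tie a replicate to an animal or to a separate isolation, so the p-values measure the spread between these cultures or libraries. The cells are an expanded primary culture, and the mRNA of a library is relative: fewer cells and less RNA per cell cannot be told apart.

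Coverage summed over the listed cytosines without a variant base was between 1186213013 and 2857966129, and 0.128 to 0.193% of the reads at background cytosines were unconverted. The 2 total libraries labelled HF stood apart, as set against the published list of HF sites their coverage was equal at 1 of 93 and 0 of 88 positions and lower at 41 and 44, with 6 and 7 not listed. In the other 10 libraries it was equal at 57 to 128 positions and lower at 0, with 0 not listed. Which sample these 2 files hold is therefore not settled, and a value of theirs may not be one of high folate. They are called the libraries labelled HF and entered the main comparison of polysome with total mRNA only through the shared estimate of spread and the minimum of cytosines that each of the 12 libraries had to reach. Library pHF replicate 2 had a level above 0.9 at 38353 cytosines, and the other libraries at 3465 or fewer. Of 12 NSC markers 11 were listed in every library, with Sox2 not listed, at a summed scaled coverage of 44766 to 61692. A marker not listed had no background cytosine under its symbol, which does not show that the gene is silent. By immunostaining, the paper found all cells positive for Nestin and Sox2. Of 6 neuronal markers 3 were listed, at a summed scaled coverage of 570 to 1294, and Rbfox3, Snap25 and Syt1 were not. Mesenchymal markers (5 of 6 listed, Dcn not listed) summed to 9795 and 10161 in the libraries labelled HF and to 3857 to 6028 elsewhere.

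The proteasome has a barrel, the 20S core, built from rings of alpha and beta subunits, and a cap, the 19S regulatory particle. Some beta subunits (Psmb5, Psmb6 and Psmb7) carry the proteolytic sites. The cap's base holds the ATPases Psmc1 to Psmc6 that unfold substrates, and its lid removes ubiquitin through Psmd14. Under interferon, cells build an immunoproteasome in which Psmb8, Psmb9 and Psmb10 replace Psmb5, Psmb6 and Psmb7. In stem cells the proteasome is known for keeping protein quality and for degrading cell cycle regulators.

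Members also carried the cytosines whose methylation level was compared between conditions. Of all member cytosines, 11 passed the standard filter in both replicates of a condition. This filter asks for 20 or more reads, of which 6 or more are methylated, and a level from 0.1 up. The paper also filtered on incompletely converted reads, signal to noise, adjusted p and predicted RNA structure, which was not done here. The sites are thus not the high-confidence sites of the paper. The 6 that entered a test between conditions are shown with 21 bases, 5′ to 3′ on the strand of the transcript, as the deposited files give them. All 11 sequences equal the genome GRCm38.p6. Capitals mark the cytosine and, where present, a GGG that directly precedes it. This GGG is not the G-rich triplet that the paper reports downstream of its m5C sites.
Psma6: gtacagaGGGCacgctatgag
Psmb5: tccggagGGGCagtcaacctc
Psmd10: ccaaaggGGGCctgggtttaa
Psmd5: gtagaagGGGCtgactgatcc
Psma4: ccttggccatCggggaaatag
Psma3: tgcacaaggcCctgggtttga

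On mm10, the Psma6 site lies at chr12:55410154 (plus strand), the Psmb5 site at chr14:54614292 (minus strand), the Psmd10 site at chrX:140949192 (minus strand) and the Psmd5 site at chr2:34852583 (minus strand), each in a coding exon. The Psma4 site is at chr9:54957899 (plus strand) in the 3′ UTR, and the Psma3 site at chr12:70981539 (plus strand) in an intron. The other 5 were in coding exons of Psmd1 (chr1:86118571), Psmd5 (chr2:34866937) and Psme4 (chr11:30820107) and in the 3′ UTR of Psma7 (chr2:180036419) and Psme4 (chr11:30880167). A GGG came directly before the cytosine at 8 of the 11.

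Whether proteasome mRNAs take a larger part of polysome than of total mRNA was asked at LF and MF. At these concentrations 15 of 41 members were higher in polysome mRNA and 1 was lower, by limma with a Benjamini-Hochberg adjusted p under 0.05. Over all 7475 genes, 16.6% were called higher and 13% lower. The median log2 difference was 0.26 for the members and 0.03 for all genes. Members that rose included the proteolytic subunit Psmb5, the ubiquitin receptor Psmd4 and the activator Psme1, while the ATPase Psmc6 fell.

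The files list a cytosine only where at least 1 read was unconverted, so the positions behind a gene's median differ between libraries. Coverage was therefore also compared position by position, with a term for each cytosine. On this site-adjusted coverage, 24 members were higher and 4 were lower in polysome mRNA, with 34.6% of 6997 genes higher and 30.5% lower. The median log2 difference was 0.49 for members and 0.04 for all genes. All 4 polysome libraries were above all 4 total libraries in scaled coverage (each library brought to the same median gene) for 16 members, against 21.2% of all genes, and below them for 0, against 15.4%. On site-adjusted coverage this held for 23 members, against 32.7% of genes, and the reverse for 3, against 28.1%. The split depended on the normalization. With quantile normalization, 8 members were higher (16% of genes) and 5 lower (15.1%), or 19 (33.6%) and 9 (32.6%) on site-adjusted coverage. The members' median difference was then -0.0062 against 0.016 for all genes, or 0.21 against 0.015 on site-adjusted coverage. Without the libraries labelled HF and pHF, the call was 16 members as well, and leaving out MF replicate 1 lowered it to 9, all 9 higher. The files assign some cytosines of Psma2, Psmb5, Psmd1, Psmd13 and Psmg3 to an overlapping gene as well, and cytosines of 1 gene alone gave 15 members higher and 2 lower. For the fits without libraries and with cytosines of 1 gene, no share of all genes is given. Their counts cannot be set against all genes.

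**Figure D1:**
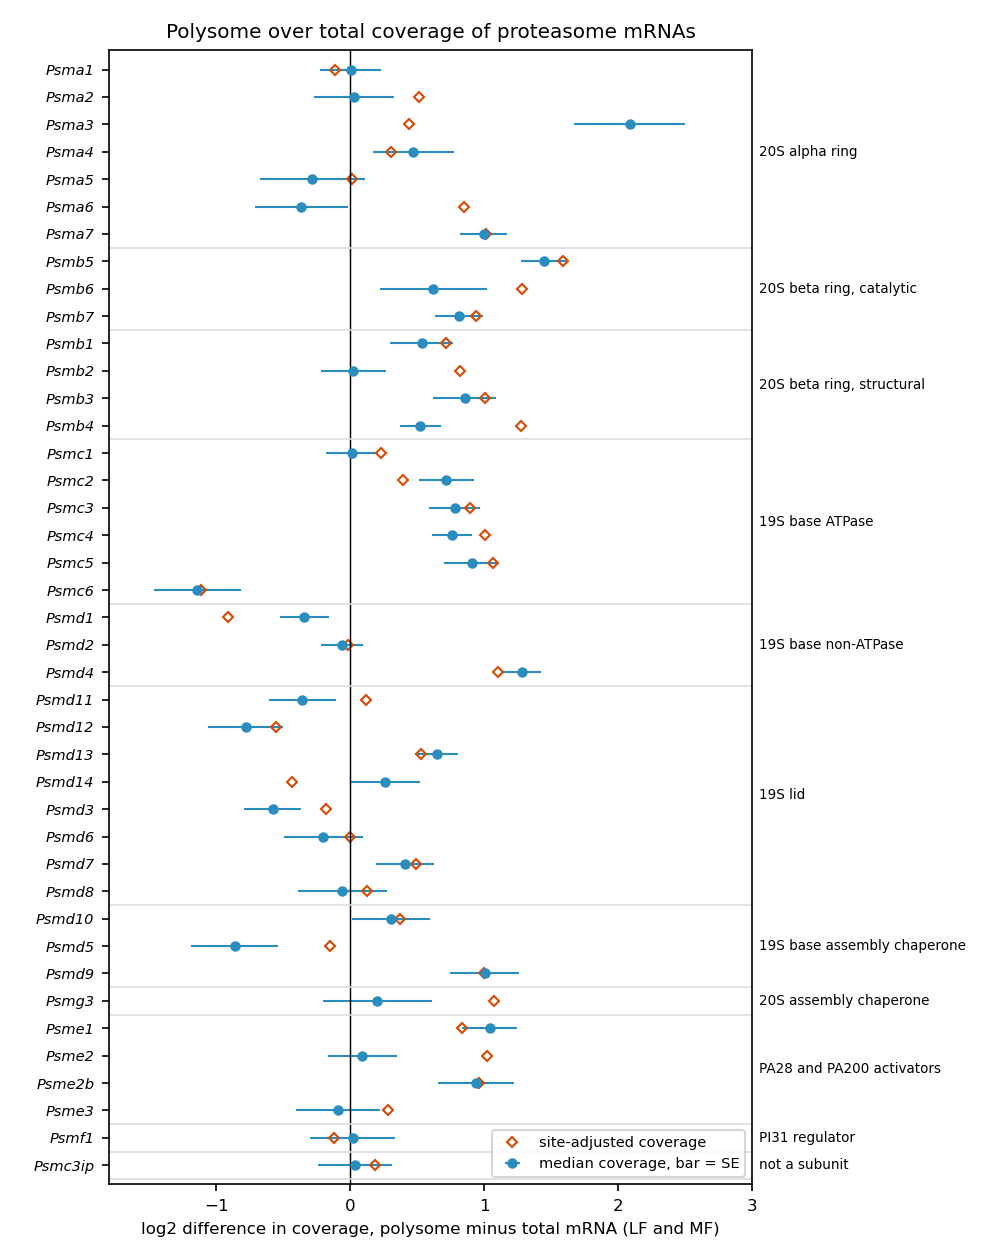
The log2 difference in coverage between polysome and total mRNA at LF and MF (x axis) for the 41 members tested (y axis), grouped by role. Filled points with bars are median coverage with its standard error and open diamonds are site-adjusted coverage; beta subunits lie to the right of 0 on both measures, Psmc6 lies near -1.1 on both, and Psma3 at 2.09 and 0.44 shows how far the measures can part.

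The alpha ring, which gates the entry of substrates, had 2 of 7 subunits higher and 0 lower, and 4 of 7 higher on site-adjusted coverage. Psma7 had the highest coverage of all members. Psma7 (chr2:180036374-180042433, minus strand) had a scaled coverage of 4157 and 4725 for LF, 4266 and 4506 for MF, 4695 and 4006 for labelled HF, 7538 and 12538 for pLF, 7872 and 8025 for pMF, and 9311 and 7133 for pHF. The polysome libraries were all above the total libraries. The difference at LF and MF was 1.00 on the log2 scale (SE 0.18, adjusted p = 0.0029), or 1.99-fold, and 1.01 on site-adjusted coverage.

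Psma3 had the largest rise on median coverage among the 41 members tested, which site-adjusted coverage gave to Psmb5. Its scaled coverage was 780 and 1239 for LF, 170 and 686 for MF, 399 and 312 for labelled HF, 2791 and 1320 for pLF, 2888 and 3436 for pMF, and 2133 and 2296 for pHF. Groups did not overlap, but the replicates of MF, with the same RNA fraction and folate, were 170 and 686. The difference was 2.09 on the log2 scale (SE 0.41, adjusted p = 0.00509), which site-adjusted coverage reduced to 0.44 (adjusted p = 0.00588), from 4.24-fold to 1.36-fold. Psma1, Psma2, Psma4, Psma5 and Psma6 had differences between -0.37 and 0.47 and did not pass the test on median coverage. Psma2 and Psma6 passed it on site-adjusted coverage, at 0.51 and 0.85.

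All 7 constitutive beta subunits had a positive difference, of which 4 passed the test on median coverage and 7 on site-adjusted coverage. Psmb5, which carries the chymotrypsin-like site (chr14:54614119-54618022, minus strand), had a scaled coverage of 1619 and 1582 for LF, 1637 and 1658 for MF, 3215 and 2875 for labelled HF, 3729 and 6022 for pLF, 4281 and 3939 for pMF, and 4384 and 3750 for pHF. Every polysome library was above the highest LF or MF library, and the libraries labelled HF lay between. The difference was 1.44 on the log2 scale (SE 0.17, adjusted p = 0.000415), a 2.72-fold higher coverage, and 1.59 on site-adjusted coverage.

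Psmb7, with the trypsin-like site, had a scaled coverage of 2327 and 2667 for LF, 2461 and 2620 for MF, 2506 and 2229 for labelled HF, 3798 and 6375 for pLF, 4403 and 3586 for pMF, and 3883 and 4179 for pHF. Polysome libraries were above the total libraries, by 0.81 on the log2 scale (SE 0.18, adjusted p = 0.00837). Psmb6, with the caspase-like site, had 2312 and 2644 for LF, 2685 and 2290 for MF, 7950 and 1693 for labelled HF, 3272 and 5510 for pLF, 3992 and 2919 for pMF, and 4426 and 4529 for pHF. The 2 libraries labelled HF were the highest and the lowest of all for this gene, and the groups at LF and MF did not overlap. Its difference of 0.62 on the log2 scale (SE 0.40, adjusted p = 0.269) did not pass the test, and that of 1.28 (adjusted p = 4.51e-06) on site-adjusted coverage did. Of the structural beta subunits, Psmb3 (0.85) and Psmb4 (0.52) passed, and Psmb1 (0.53) and Psmb2 (0.024) did not.

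The immunoproteasome subunits were far less covered than their constitutive counterparts and had too few background cytosines for the main test. Psmb8, the counterpart of Psmb5, had a scaled coverage of 46.9 and 47.7 for LF, 46.7 and 59.2 for MF, 128 and 163 for labelled HF, 124 and 229 for pLF, 183 and 119 for pMF, and 142 and 145 for pHF. Psmb10, the counterpart of Psmb7, had 108 and 126 for LF, 69.5 and 89.1 for MF, 411 and 397 for labelled HF, 602 and 936 for pLF, 331 and 186 for pMF, and 299 and 232 for pHF. Both were higher in each polysome library of LF and MF than in each total library of LF and MF. Psmb9, the counterpart of Psmb6, was listed at 84.5 and 47.2 for labelled HF, 47.3 and 49.9 for pLF and 31.0 and 29.6 for pMF, from at most 4 cytosines, and had no background cytosine listed in LF, MF or pHF. The lowest coverage of a background cytosine was 21 reads, and before scaling Psmb9 had 23 and 21 in pMF. These values thus lie at or near the floor, and groups without a listed cytosine are not shown to lack the mRNA.

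When the minimum was lowered to 1 background cytosine per library, 6 further members could be fitted. Psmb10 was higher in polysome mRNA by 2.21 on the log2 scale (SE 0.30, adjusted p = 0.000649), Psmb8 by 1.70 (SE 0.30, adjusted p = 0.00237) and Psmg4, a core assembly chaperone, by 2.36 (SE 0.44, adjusted p = 0.00319). Psme4, the large activator PA200, was lower, at -1.12 (SE 0.31, adjusted p = 0.0226), as was the core assembly chaperone Psmg2 at -0.85 (SE 0.28, adjusted p = 0.0451). Its partner Psmg1 had 0.47 (SE 0.74, adjusted p = 0.663). These genes rest on as few as 2 cytosines in a library. Their calls were not set against the share of all genes called in this fit. The thymus subunit Psmb11 and the pseudogene Psmb7-ps2 were listed without a background cytosine, and for the testis subunit Psma8 no cytosine was listed.

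Among the 6 ATPases of the base, 4 rose and 1 fell. Psmc2, Psmc3, Psmc4 and Psmc5 were higher by 0.72, 0.78, 0.76 and 0.91, and Psmc1 had 0.016. Psmc6 went the other way (chr14:45329788-45349705, plus strand). Its scaled coverage was 380 and 713 for LF, 941 and 894 for MF, 149 and 294 for labelled HF, 308 and 239 for pLF, 382 and 342 for pMF, and 373 and 629 for pHF. One pMF library, at 382, was above the lowest LF library at 380, so the groups touched. The fall was -1.14 on the log2 scale (SE 0.32, adjusted p = 0.0251) on median and -1.11 on site-adjusted coverage. On median coverage it was no longer called without LF replicate 2, pLF replicate 2 or any 1 of the MF and pMF libraries, nor with summed coverage scaling, at -0.92 to -1.18.

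The non-ATPase part of the base differed within itself. Psmd4, a receptor for ubiquitin chains (chr3:95032694-95042614, minus strand), had a scaled coverage of 2673 and 2490 for LF, 2737 and 2720 for MF, 1967 and 1895 for labelled HF, 5217 and 7390 for pLF, 6885 and 6534 for pMF, and 6789 and 6217 for pHF. Replicates lay close together at LF and MF, and polysome libraries were all higher. The difference was 1.28 on the log2 scale (SE 0.14, adjusted p = 0.000312), or 2.43-fold. The large scaffold subunits Psmd1 and Psmd2 had -0.34 (adjusted p = 0.184) and -0.061 (adjusted p = 0.795). On site-adjusted coverage Psmd1 was lower in polysome mRNA, at -0.92 (adjusted p = 2.73e-05).

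Of the 8 lid subunits tested, 1 was higher, Psmd13, by 0.64 (adjusted p = 0.0144). Site-adjusted coverage added Psmd7 as higher (0.49), and the structural subunit Psmd12 (-0.56) and the deubiquitinase Psmd14 (-0.44, adjusted p = 0.0399) as lower. Psmd14 had the opposite sign on median coverage, at 0.26 (adjusted p = 0.481). The median over the lid was -0.13, or 0.06 on site-adjusted coverage, against 0.53 and 0.91 for the structural beta subunits. The difference between roles was not tested.

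Of the assembly factors and regulators, 3 were higher and 0 lower, and 6 and 0 on site-adjusted coverage, where Psmd10 (0.37), Psme2 and the core assembly chaperone Psmg3 (1.07) were added. Psmd9, a chaperone of the base, had a scaled coverage of 593 and 1052 for LF, 646 and 868 for MF, 1565 and 995 for labelled HF, 1576 and 2044 for pLF, 1392 and 1263 for pMF, and 1467 and 1024 for pHF. Polysome and total libraries of LF and MF did not overlap, and the difference was 1.00 on the log2 scale (SE 0.26, adjusted p = 0.016). Psme1, a subunit of the PA28 activator that opens the core without ubiquitin (chr14:55578123-55581529, plus strand), had 2059 and 2060 for LF, 1755 and 1880 for MF, 3244 and 5575 for labelled HF, 3825 and 5451 for pLF, 3261 and 3668 for pMF, and 4038 and 3095 for pHF. It was higher in the polysome libraries of LF and MF by 1.04 on the log2 scale (SE 0.20, adjusted p = 0.0047), and the libraries labelled HF reached the polysome range. Psme2b was higher by 0.94 (adjusted p = 0.0334), and Psme2, of which it is a near-identical copy, had 0.091 (adjusted p = 0.819). On site-adjusted coverage the pair had 0.96 (adjusted p = 0.000176) and 1.02 (adjusted p = 5.57e-05). The paper called cytosines from uniquely aligned reads, and what this does to the coverage of such a pair was not tested. The inhibitor PI31, Psmf1, had the lowest coverage of the tested members. It was 175 and 169 for LF, 224 and 214 for MF, 847 and 386 for labelled HF, 206 and 258 for pLF, 213 and 131 for pMF, and 159 and 198 for pHF and differed by 0.018 (adjusted p = 0.971).

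**Figure D2:**
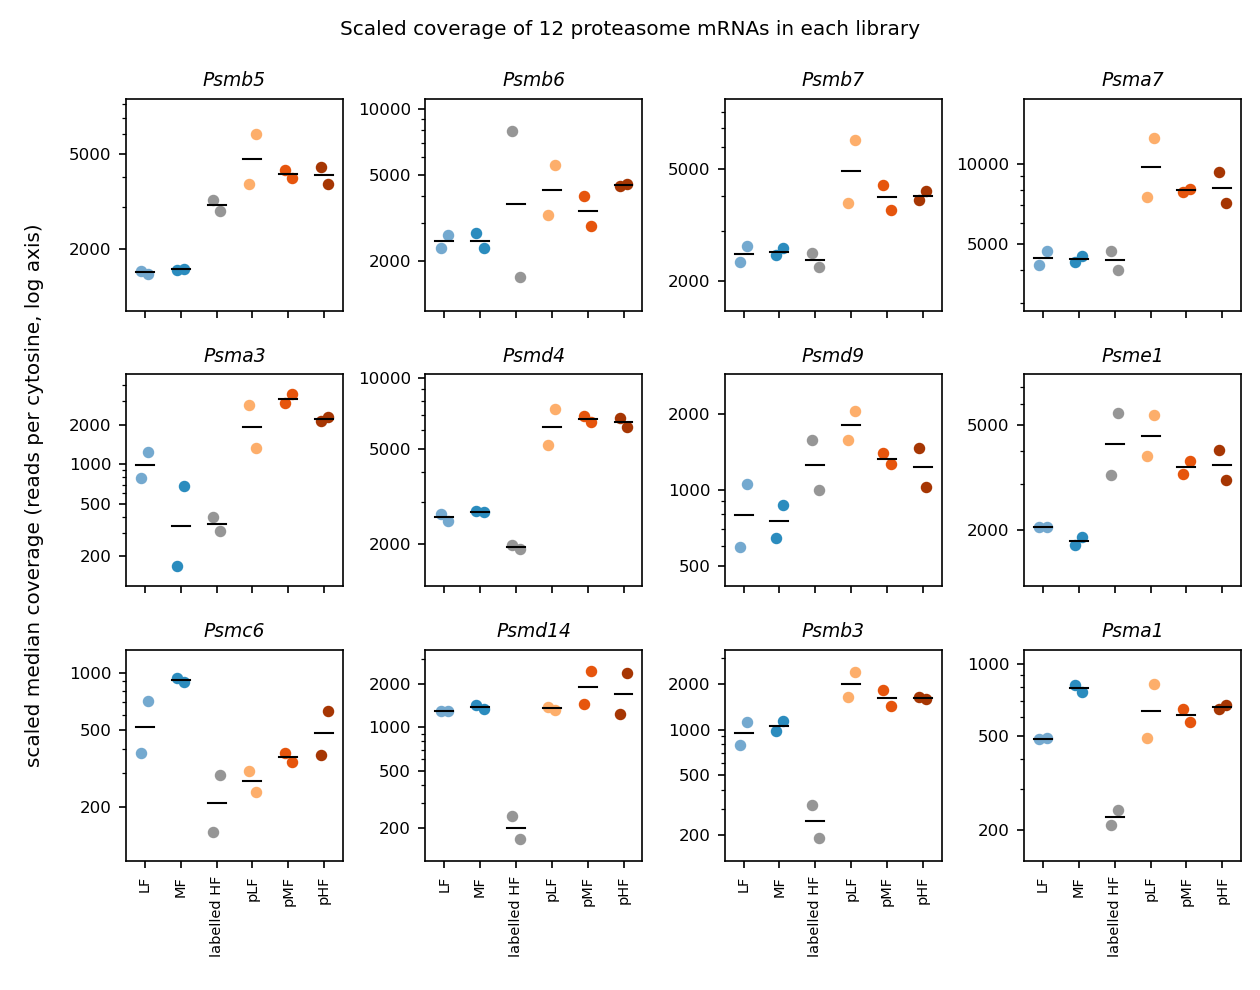
Scaled median coverage (reads per cytosine, log axis) of 12 members in each library, with total mRNA in blue or grey, polysome mRNA in orange to brown, and a line at the geometric mean of the 2 replicates. Psmb5 lies at 1582 to 1658 in LF and MF and at 3729 to 6022 in pLF and pMF, whereas Psmd14, Psmb3 and Psma1 drop in the libraries labelled HF.

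Replicates of pLF differed most. Between them the median absolute log2 difference over members was 0.734 (0.509 site-adjusted), against 0.0990 to 0.318 in the other groups. Over all genes pLF differed most as well, at 0.581 on median coverage against 0.207 to 0.529 in the other groups. Library pLF replicate 2 was the highest of all 12 for 23 members. On site-adjusted coverage pHF replicate 2 was the highest for 14 members and pLF replicate 2 for 17. The share of all genes highest in pLF replicate 2 was not counted. Without that library 14 members were called. How many of all genes were called without it is not given, so this count cannot be set against all genes. The part of this library in the size of the differences was not tested further.

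Members with shorter proteins tended to have larger differences. Spearman's rho between protein length and the polysome over total difference was -0.31 over 41 members and -0.27 over 7312 genes (Pearson's r -0.31 and -0.27), and -0.46 and -0.34 on site-adjusted coverage. The median length was 264 codons for members and 454 for all genes. This is a description across genes of the same libraries, which are not replicates.

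Other genes of the pathway were listed with earlier results of these data known. Of 28 tested, 4 were higher and 6 lower in polysome mRNA (16.6% and 13% of all genes), with a median of -0.042 on the log2 scale. On site-adjusted coverage 8 and 9 of 27 were called (34.6% and 30.5% of all genes). Sem1, a small lid subunit that its symbol leaves out of the members, had a scaled coverage of 2634 and 2606 for LF, 1788 and 2349 for MF, 2715 and 2602 for labelled HF, 5509 and 8626 for pLF, 6782 and 8888 for pMF, and 9503 and 4845 for pHF. It was higher in all polysome libraries, by 1.66 (adjusted p = 0.00101). Shuttle factors, which bring substrates to the proteasome, included the largest fall on median coverage, whereas on site-adjusted coverage it was that of the transcription factor Nfe2l2 (-1.92, against -1.73 for Ubqln2).

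Ubqln2, such a shuttle factor, had 799 and 939 for LF, 1119 and 1202 for MF, 594 and 1479 for labelled HF, 420 and 187 for pLF, 106 and 152 for pMF, and 397 and 290 for pHF. It was lower in polysome mRNA, at -2.41 on the log2 scale, as was the shuttle factor Rad23b at -1.96. Nfe2l1, the transcription factor that induces proteasome genes when the proteasome is inhibited, had 919 and 952 for LF, 800 and 891 for MF, 1741 and 1760 for labelled HF, 1330 and 1415 for pLF, 1283 and 1425 for pMF, and 1273 and 1592 for pHF. It was higher in polysome mRNA by 0.62 (adjusted p = 0.0174). Its protease Ddi2 was lower (-1.33), as were its relative Nfe2l2 (-2.27) and the ubiquitin-activating enzyme Uba1 (-1.01), although Uba1 turned to 0.27 over cytosines listed in all 12 libraries.

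The effect of low folate was asked in each fraction. Between LF and MF, 0 of 41 members were called in either direction by limma, with 0% of all genes called. At an unadjusted p under 0.05, 1 member was higher and 0 lower, against 2.05% of all genes in either direction, and edgeR and DESeq2 called 0. Between pLF and pMF, 0 members were called, against 0.147% of genes, with 1 higher and 1 lower at an unadjusted p under 0.05 (8.37% of genes) and 1 called by DESeq2 and 0 by edgeR. The test of whether the polysome over total difference changed between MF and LF called 0 members, against 0.0134% of genes, with 1 higher and 1 lower at an unadjusted p under 0.05 (4.19% of genes) and 0 called by edgeR or DESeq2. The 1 call by DESeq2 between pLF and pMF is not set against the share of all genes it called. Members had median log2 differences of -0.021 between LF and MF and of 0.11 between pLF and pMF.

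High folate was compared in polysome mRNA and, for the libraries labelled HF, in total mRNA. Between pHF and pMF, 0 members were called by limma, against 0.0134% of genes. At an unadjusted p under 0.05, 4 were higher and 0 lower (8.05% of genes in either direction). DESeq2 called 2 members and edgeR 0. The share of all genes that DESeq2 called is not given, so its 2 calls cannot be set against all genes. In total mRNA, 1 member was higher (3.65% of genes) and 7 were lower (2.85%) in the libraries labelled HF than in MF, and 6 (18.9%) and 16 (20.6%) on site-adjusted coverage. The median log2 difference was -0.42 for members and -0.02 for all genes. The mesenchymal markers given above were also higher in these libraries, and their part was not tested. For the fits without a library that follow, no share of all genes is given, so their counts cannot be set against all genes. Without MF replicate 1, MF replicate 2 or replicate 1 of the libraries labelled HF, the call came to 0, 1 and 4 members.

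Psmd14, the deubiquitinase of the lid, fell most (chr2:61711694-61800376, plus strand). Its scaled coverage was 1309 and 1302 for LF, 1427 and 1336 for MF, 242 and 168 for labelled HF, 1394 and 1330 for pLF, 1458 and 2481 for pMF, and 1237 and 2379 for pHF. The libraries labelled HF were lower than all others, by -2.77 on the log2 scale (SE 0.37, adjusted p = 0.00605) against MF, which is 6.83-fold. Site-adjusted coverage gave -1.83. Psmb3, a structural beta subunit, had 796 and 1115 for LF, 978 and 1144 for MF, 317 and 192 for labelled HF, 1652 and 2419 for pLF, 1836 and 1440 for pMF, and 1636 and 1588 for pHF, a fall of -2.10 on the log2 scale (SE 0.33, adjusted p = 0.00965). Psmc6 (-2.13) and Psma1 (-1.81) were also lower, on site-adjusted coverage too.

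Psme2 was the exception. It had 901 and 2060 for LF, 1649 and 1569 for MF, 268 and 316 for labelled HF, 1819 and 2284 for pLF, 1404 and 1060 for pMF, and 1327 and 1375 for pHF. The fall against MF of -2.47 on the log2 scale (SE 0.37, adjusted p = 0.00858) turned to 0.18 on site-adjusted coverage and to 0.26 on mean coverage. Its partner in the PA28 ring, Psme1, was the member that rose on median coverage, by 1.23 on the log2 scale (SE 0.29, adjusted p = 0.0362). On site-adjusted coverage all 3 proteolytic beta subunits were called higher, by 0.57 to 0.89, as was Psmb1 (0.62, adjusted p = 0.00954). The other 3 structural beta subunits were called lower. Of all genes, 18.9% were higher and 20.6% lower on this measure. Psmb10 of the immunoproteasome, in the fit with a minimum of 1 cytosine, was higher by 2.34 (SE 0.42, adjusted p = 0.0128).

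Between pHF and the libraries labelled HF, 16 members were higher (7.17% of genes) and 1 was lower (5.93%), and 31 (29.4%) and 1 (22.8%) on site-adjusted coverage. This comparison shares the libraries labelled HF with the one above. The largest rises were Psmd14 (3.09), Psmb3 (2.71), Psma3 (2.65), Psmb2 (2.60) and Psme2 (2.21), and the lower one was Psmf1 (-1.69). On site-adjusted coverage Psmf1 had -0.45 (adjusted p = 0.13) and was not called, and the lower member was Psmd3, a non-ATPase subunit of the cap, at -0.69 (adjusted p = 0.00426). Psme2 turned to -0.16 on mean coverage. Psmb5, which rose at LF and MF, had 0.42 (adjusted p = 0.27) here on median coverage and 0.90 (adjusted p = 0.000274) on site-adjusted coverage. Without replicate 2 of the libraries labelled HF, or without pHF replicate 1, 9 members were called, and without pHF replicate 2, 13. No share of all genes is given for these fits without a library, so their counts cannot be set against all genes. The difference of this contrast from that at MF was called for 5 members on median coverage, all higher, against 1.11% of genes. On site-adjusted coverage it was called higher for 12 members (14.3% of genes) and lower for 3 (13%). With only the groups compared, or with the replicate block, it was called for 0 on median coverage.

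**Figure D3:**
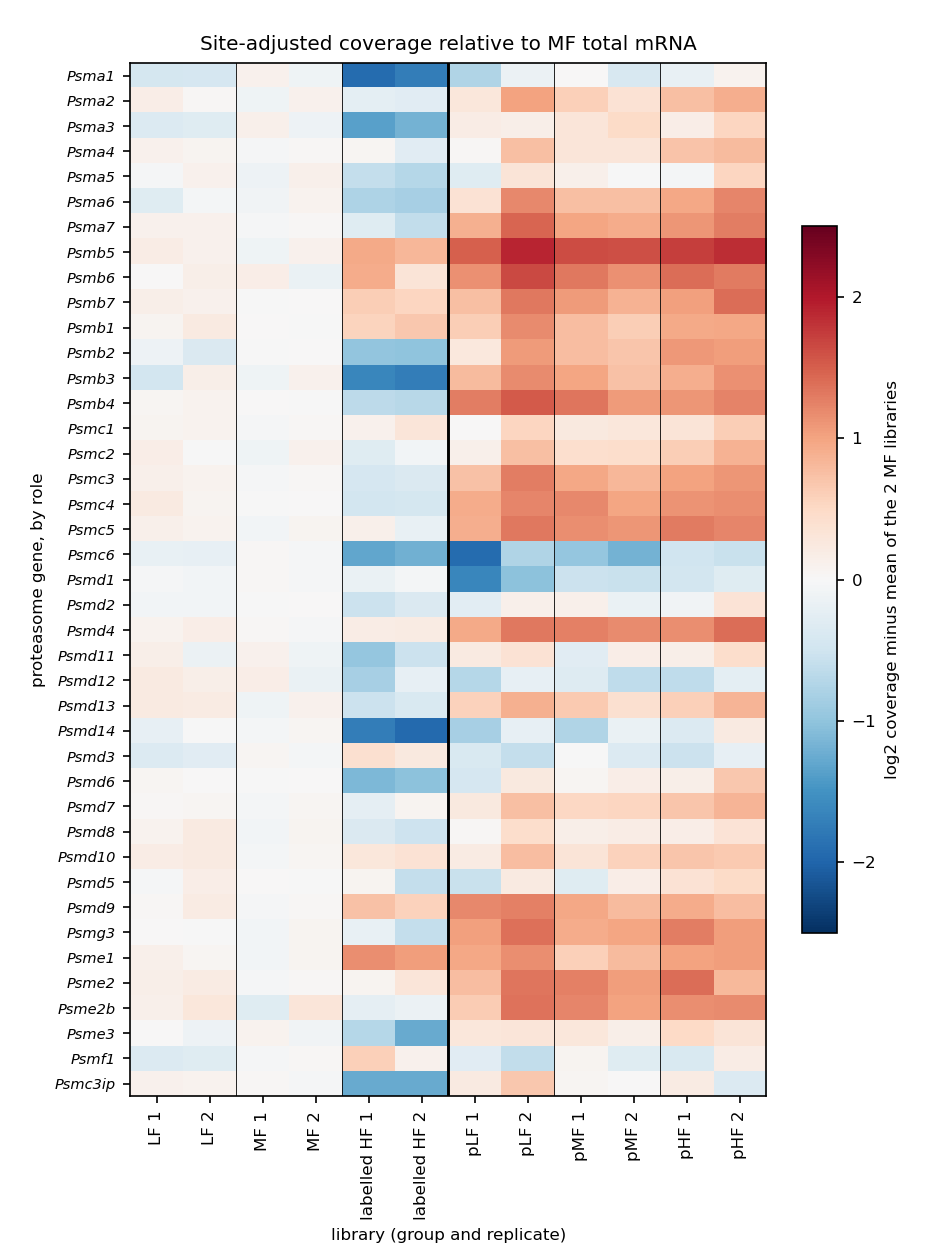
Site-adjusted coverage of the 41 members (rows, by role) in the 12 libraries (columns), as the log2 difference from the mean of the 2 MF libraries. Red columns of pLF, pMF and pHF hold most beta subunits and ATPases, Psmc6 and Psmd1 are blue in polysome mRNA, and Psma1, Psma3, Psmb3 and Psmd14 are darkest blue in the libraries labelled HF.

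Methylation levels at member cytosines were low. Of 5609 to 9471 member cytosines listed with a coverage of at least 20 in a library, 0.250 to 0.884% had a level of at least 0.05 in the libraries other than those labelled HF. In the latter it was 2.00% (95% Wilson interval 1.72 to 2.33) and 1.33% (1.10 to 1.61). The share depends on the coverage asked for, since at 20 reads 1 unconverted read gives a level of 0.05. From a coverage of 50 up, the libraries labelled HF had 0.719 and 0.385%, with 0.0123 to 0.277% in the others, and from 100 up they had 0.189 and 0.241%, against 0 to 0.0899%. Intervals cover counting error only, as the reads carry no molecular identifiers. At member cytosines with a level under 0.05, 0.0944 to 0.152% of the reads were left unconverted.

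In total mRNA the Psma3 intronic cytosine was the 1 member site that passed the filter in both replicates of LF or MF. In LF its level was 66.7% of 60 reads and 83.3% of 36. In MF it was 86.2% of 29 and 57.6% of 33, and the libraries labelled HF had 66.7% of 24 and 88.5% of 26. It was not listed in polysome mRNA. Replicates overlapped between conditions. With the reads of both replicates pooled for Fisher's exact test, the level was 72.9% in LF and 71.0% in MF (adjusted p = 1), with 0 of 1 member sites called against 0.76% of all sites tested.

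The other 10 sites passed only in the libraries labelled HF. The Psma6 site was covered by 927 to 10738 reads in the 12 libraries. Its level reached 19.2 and 20.5% in the libraries labelled HF and lay between 0.0466 and 0.267% in the other 10. The Psma4 site had 24.2 and 18.4% in the libraries labelled HF and 0.826 to 4.52% elsewhere. The Psmb5 site had 11.9 and 11.1%, against 0.0192 to 0.212% in the 9 other libraries that listed it.

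At Psmd10, a chaperone of the base, the level was 30.5% of 151 reads and 31.9% of 113 in the libraries labelled HF, and 0.0661 to 0.375% elsewhere. The first Psmd5 site had 19.7 and 26.1%, against 0.490 to 4.35%, and the second 13.7 and 13.4%. Psmd1 had 55.6% of 90 reads and 35.2% of 105, Psma7 had 38.8% of 49 and 54.5% of 22, and the Psme4 sites had 15.2 and 16.9% and 40.7 and 40.2%. No library outside that pair exceeded 5% at any of these 10 sites.

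**Figure D4:**
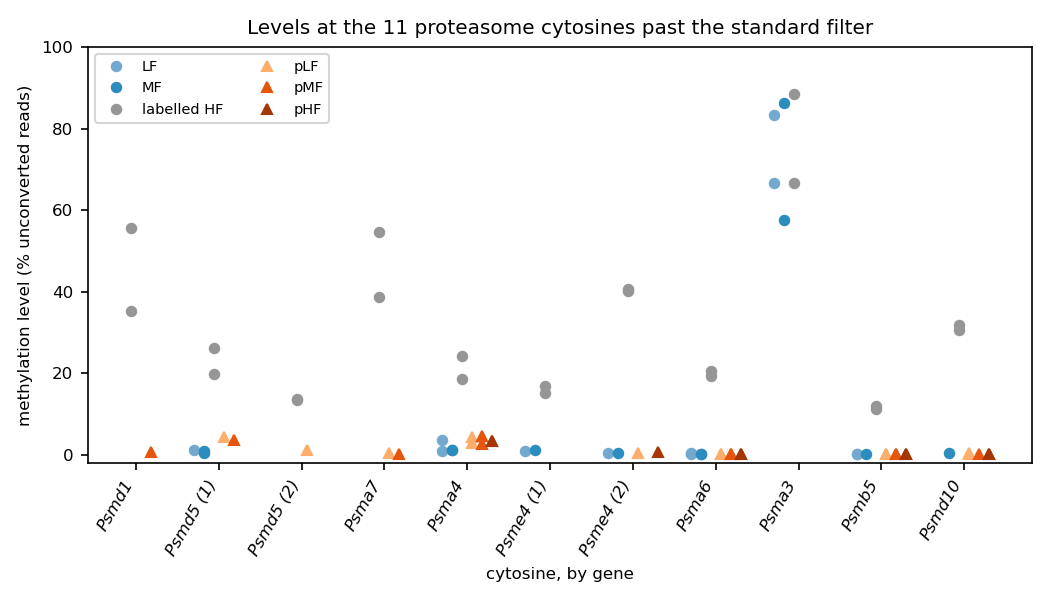
Methylation level (% unconverted reads) of the 11 member cytosines past the standard filter (x axis), with 1 point for each library that listed the cytosine, circles for total and triangles for polysome mRNA. Grey circles of the libraries labelled HF stand at 11.1 to 55.6% over 10 of the sites, and at Psma3 all total mRNA libraries lie at 57.6 to 88.5%.

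A site entered Fisher's exact test if it passed the filter in both replicates of either condition and had a coverage of at least 20 in every library compared. A site that any of these libraries did not list was therefore left out, among the members and among all sites. Every member site but Psma3 passed only in the libraries labelled HF, where it is high, so it had to differ from the other condition, and the calls against these libraries are a description of that choice. Between the libraries labelled HF and MF the test called 3 of 4 member sites, Psmd5, Psma4 and Psma6, against 94.2% of all 1138 sites tested. The difference in pooled level was 21.4 percentage points at Psmd5, 20.3 at Psma4 and 19.7 at Psma6, and the Psma3 site, at 78.0 against 71.0%, was not called (adjusted p = 0.528). Between pHF and the libraries labelled HF, 4 of 4 were called, Psma4, Psma6, Psmb5 and Psmd10, against 65.6% of 648 sites. The pooled level was 3.42% in pHF and 21.4% in the libraries labelled HF at Psma4, 0.0742 and 19.9% at Psma6, 0.0742 and 11.5% at Psmb5, and 0.114 and 31.1% at Psmd10. In the comparisons within polysome mRNA, and of polysome with total mRNA at LF and MF, no member site was tested, since Psma3 was not listed in polysome mRNA and none of the others passed the filter outside the libraries labelled HF.

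The GGG that precedes 8 of the 11 sites was rare among member cytosines, at 1.39 to 1.71% of those listed. After GGG, 0.650 and 0.653% of reads were unconverted in the libraries labelled HF, against 0.0850 to 0.150% in the other 10. This context was noticed at the sites past the filter, which are high in these libraries and are part of the share. Without the 11 sites it was 0.436 and 0.429%, against 0.0870 to 0.149%. At the other member cytosines the share was 0.151 and 0.152%, against 0.0953 to 0.151%. Over all genes, 55.5% of the 3167 sites past the filter in both libraries labelled HF followed GGG, against 1.63 to 2.74% in the other 5 groups. Sites of other genes thus shared this context in the libraries labelled HF.

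**Figure D5:**
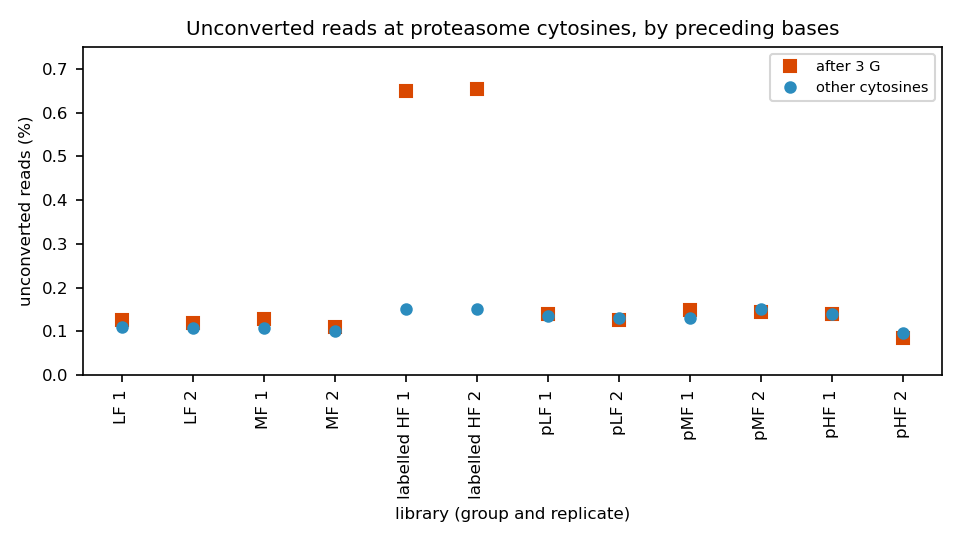
Share of unconverted reads (%) over member cytosines directly after 3 G (squares) and over all other member cytosines (circles) in each library, with the sites past the filter included. The squares stand at 0.650 and 0.653% in the libraries labelled HF, and squares and circles lie at 0.0850 to 0.152% otherwise.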

How the data were processed

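RNA BS-seq of total and polysome poly(A) mRNA gave 12 libraries in 6 groups of 2, grouped by the deposited labels. The authors used fastp for trimming, meRanGh for alignment to mm10, and meRanCall and meRanAnnotate for calling and annotating cytosines. As deposited, each cytosine has counts of all reads (coverage) and of methylated reads, with no normalization by the authors, and a level, the fraction of reads with C or T that is methylated, computed by the authors. Cytosines are listed from a coverage of 10 and 1 methylated read, and those with a variant base were left out here.

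The members and gene lists were chosen with earlier results of these data known. Per gene and library, the median coverage of cytosines with a level under 0.05 was taken (at least 10 in each library), its log2 was centred on the median gene, and groups were compared with limma 3.58.1 (R 4.3.3, trend) over all 12 libraries, with the Benjamini-Hochberg adjustment over 7475 genes and a threshold of 0.05. No replicate block was used, since deviations of replicates with the same number correlated at -0.048 to 0.042 over 15 pairs of groups. Site-adjusted coverage, added after the data were seen, came from least-squares library effects with a term for each cytosine listed in at least 2 libraries. Levels were compared by two-sided Fisher's exact tests on pooled reads, which have no error term between replicates. With 2 against 2, an exact test of a single value cannot go below p = 0.333. Alternatives used edgeR 4.0.16 and DESeq2 1.42.0 on rounded coverage, which is not a count of independent reads. Tested on simulated data for polysome versus total with 200 of 7475 genes changed, the fit recovered 18% of changes of 1 and 68% of changes of 2 on the log2 scale, with 7 false calls. The measured contrast called a larger share, 16.6% of genes higher and 13% lower, so these rates need not hold for it.

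Genes were named as the up to 5 largest rises and falls past the threshold in each contrast, the constitutive and immunoproteasome pairs, members with a site past the standard filter, the members of highest and lowest coverage, and up to 6 pathway genes with Nfe2l1. Protein lengths were taken from the longest coding sequence in GENCODE vM21. Tables were made with Python 3.11.15, numpy 2.4.6, pandas 2.3.3 and scipy 1.17.1, and figures with matplotlib 3.10.9. Alternatives changed the cytosines used, the minimum per gene, the summary of coverage, the normalization, the tool, the libraries and the replicate block.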

Additional observations from a re-analysis of the deposited data

Results flagged for a closer look

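For 5 members, the polysome over total difference at the libraries labelled HF differed from that at MF in limma's test of the difference itself. It was larger by 3.37 on the log2 scale for Psmd5 (SE 0.65, adjusted p = 0.0439), with 1.98 between pHF and the libraries labelled HF and -1.39 between pMF and MF. For the lid subunit Psmd11 it was larger by 3.12 (SE 0.50, adjusted p = 0.0347), for Psmb2 by 2.97 (SE 0.49, adjusted p = 0.0358), for Psmd14 by 2.62 (SE 0.52, adjusted p = 0.0490) and for Psme2 by 2.61 (SE 0.52, adjusted p = 0.0490). On site-adjusted coverage the values were 0.75 for Psmd5, 1.10 for Psmd11, 1.32 for Psmb2, 2.23 for Psmd14 and -0.24 for Psme2, and Psmd5 (adjusted p = 0.173) and Psme2 (adjusted p = 0.584) were no longer called. With only the groups compared, or with the replicate block, 0 members were called. Leaving out any 1 library of LF, MF, the libraries labelled HF or pMF, or pHF replicate 2, gave 0 as well, leaving out pHF replicate 1 gave 4, and leaving out either pLF library gave 8. Shares of all genes called without a library are not given. These comparisons share the libraries labelled HF, and their part was not tested.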

How the results depend on the processing

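Median coverage depends on which cytosines a library lists, and the count of members called moved with it. The share of all genes called moved too. For pHF against the libraries labelled HF it was 7.17% higher and 5.93% lower, or 29.4% and 22.8% on site-adjusted coverage. For the libraries labelled HF against MF it was 3.65% and 2.85%, 5.06% and 4.62% with quantile normalization, or 18.9% and 20.6% on site-adjusted coverage. Where no share is given, the count of members cannot be set against all genes. Polysome versus total at LF and MF had 16 members called in the report and 28 on site-adjusted coverage, 9 to 19 with each library left out (25 to 30 site-adjusted). For pHF against the libraries labelled HF, 17 became 30 with mean coverage, 7 with only the groups compared, 32 on site-adjusted coverage and 9 to 19 with a library left out (29 to 35 site-adjusted). For the libraries labelled HF against MF, 8 of 41 became 16 of 20 over cytosines listed in all 12 libraries (30.5% of 924 genes higher and 39.8% lower), 19 with mean coverage, 13 with quantile normalization, 15 with DESeq2, 22 on site-adjusted coverage and 0 to 12 with a library left out (14 to 25 site-adjusted). DESeq2 called 1 member between pLF and pMF and 2 between pHF and pMF, where 0 were called; leaving out a library left LF against MF and these contrasts at 0 to 0.

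The 5 members whose polysome over total difference changed between MF and the libraries labelled HF became 3 in exons only, 15 of 20 over cytosines listed in all 12 libraries (31.9% of 924 genes higher and 24.4% lower), 2 with all levels, 2 with a minimum of 30 cytosines, 13 with mean coverage, 8 with quantile normalization, 2 with summed coverage scaling, 3 with edgeR, 10 with DESeq2, 0 with only the groups compared, 15 on site-adjusted coverage, 2 with cytosines of 1 gene and 0 to 8 with a library left out. The 15 on site-adjusted coverage were 12 higher and 3 lower, against 14.3% and 13% of all genes. Over cytosines listed in all 12 libraries, 11 were higher and 4 lower. With the replicate block, 16 members were called for polysome versus total and 16 for pHF against the libraries labelled HF. It gave 8 for the libraries labelled HF against MF and 0 for the change between MF and these libraries. The numbers of the replicates do not pair the samples. A level minimum of 0.2 left 5 of the 11 sites, and leaving out a library gave 11 to 17. The correlation with protein length was -0.46 for members and -0.34 for all genes on site-adjusted coverage.

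Of 25 differences of named genes under 644 combinations of gene and setting, 598 kept direction and side of the threshold, 37 fell below it and 5 rose past it. The 4 that reversed were Psme2 in the libraries labelled HF against MF (0.26 with mean and 0.18 with site-adjusted coverage), Psme2 in pHF against them (-0.16 with mean coverage) and Uba1 in polysome versus total (0.27 over cytosines listed in all 12 libraries). The cause was not tested.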
